A study of Homo sapiens with 6 samples.

Results

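Metallothioneins are small, cysteine-rich proteins that bind zinc, copper and cadmium ions, and their genes stand side by side in a cluster on chromosome 16. The genes followed here were 8 metallothionein genes (MT2A, MT1A, MT1E, MT1F, MT1G, MT1H, MT1M and MT1X), MTF1, which encodes the zinc-sensing transcription factor that drives them, and SLC30A1, which encodes the zinc exporter ZnT1 of the plasma membrane. These 10 genes were matched by exact symbol among the 43424 symbols of the count tables, and all 10 were found. RNA was counted in cultures of HepG2, a human liver cancer line in which many hepatocyte genes remain expressed, labelled wild type. Per the labels, 3 cultures were given 10 µM tamarixetin, a methylated relative of the flavonol quercetin, for 24 h, and 3 were controls with no treatment named, 24 h also standing in their titles. Serum was 1% during exposure to the compound and 10% during growth. The serum and vehicle of the controls are not stated in those labels, so a difference in medium and the compound itself cannot be told apart. The labels call the samples biological replicates of a single cell line.

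In cells, free zinc that enters the cytosol binds the zinc fingers of MTF1. The factor then binds metal response elements, short motifs repeated in metallothionein promoters and also present before SLC30A1. The proteins made in response store zinc (metallothioneins) or carry it out of the cell (ZnT1), which closes a feedback loop. Liver is a main site of metallothionein synthesis, where MT1 and MT2 genes also answer to glucocorticoids and to oxidants.

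Libraries held between 11980585 and 16168855 counts. All 10 hepatocyte markers looked up (among them ALB, APOA1 and HNF4A) averaged at least 10 CPM, counts per 1000000 of the scaled library. Their summed level was 10736 to 11038 CPM in tamarixetin libraries and 18895 to 19460 CPM in control libraries. All 10 fell, as did 21.3% of all genes tested. Of 5 fibroblast markers 1 reached 10 CPM (summed 36 to 38.2 CPM with tamarixetin, 39.3 to 44.4 CPM in control), and of 5 endothelial markers none did (summed 1.09 to 1.90 CPM with tamarixetin, 0.878 to 1.42 CPM in control), with KDR at 0. Of 5 immune markers CD3E was at 0 and 2 reached 10 CPM (summed 766 to 822 CPM with tamarixetin and 908 to 1011 CPM in control), nearly all of it LYZ, the lysozyme gene. Transcripts of the mitochondrial genome made up 8.23% ± 0.278 of tamarixetin counts and 10.6% ± 0.390 of control counts (SD, n = 3 each). The part of these shifts in the results was not tested.

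The 8 metallothionein genes lie within 75.6 kb of chromosome 16 (chr16:56608584-56684196, GRCh38.p14), MT2A at the low-coordinate end and MT1X at the other. MT1G alone among the 8 is on the minus strand in GENCODE 29. Each coding sequence has 3 exons in its transcript model and 20 TGC or TGT codons, the codons of cysteine, out of 61 (62 in MT1G). Coding sequences of the 28 pairs were 88.5% to 94.5% identical in bases. Promoter windows from RefSeq were at hand for 5 of the 10 genes, MT2A, MT1H, MT1X, SLC30A1 and MTF1. The 250 bases before the start of 4 of them are printed because they show how the motif density of the most abundant metallothionein gene compares with that of MT1H, which had no count, with that of MT1X and with that of the exporter. The sequences run 5′ to 3′ on the gene's own strand and come from RefSeq, build GRCh38.p14. Capitals mark the core of the metal response element, TGCACNC or TGCGCNC on either strand, where N is any base.
MT2A (chr16:56608334-56608583, plus strand): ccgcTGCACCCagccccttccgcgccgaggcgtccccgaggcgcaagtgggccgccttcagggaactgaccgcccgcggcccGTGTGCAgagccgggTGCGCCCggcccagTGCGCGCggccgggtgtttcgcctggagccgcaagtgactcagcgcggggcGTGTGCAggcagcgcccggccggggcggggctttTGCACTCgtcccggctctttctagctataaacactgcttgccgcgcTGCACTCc
MT1H (chr16:56669564-56669813, plus strand): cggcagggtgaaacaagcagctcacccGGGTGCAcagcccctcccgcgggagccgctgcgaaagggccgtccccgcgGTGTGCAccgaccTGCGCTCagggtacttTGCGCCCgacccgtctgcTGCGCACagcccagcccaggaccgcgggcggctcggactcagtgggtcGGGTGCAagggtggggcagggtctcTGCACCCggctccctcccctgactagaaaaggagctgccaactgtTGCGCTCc
MT1X (chr16:56682220-56682469, plus strand): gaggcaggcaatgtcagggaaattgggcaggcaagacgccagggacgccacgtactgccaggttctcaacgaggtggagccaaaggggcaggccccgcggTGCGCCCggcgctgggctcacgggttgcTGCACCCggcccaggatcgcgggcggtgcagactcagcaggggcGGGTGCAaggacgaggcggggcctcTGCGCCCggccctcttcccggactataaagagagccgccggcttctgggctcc
SLC30A1 (chr1:211579162-211579411, minus strand): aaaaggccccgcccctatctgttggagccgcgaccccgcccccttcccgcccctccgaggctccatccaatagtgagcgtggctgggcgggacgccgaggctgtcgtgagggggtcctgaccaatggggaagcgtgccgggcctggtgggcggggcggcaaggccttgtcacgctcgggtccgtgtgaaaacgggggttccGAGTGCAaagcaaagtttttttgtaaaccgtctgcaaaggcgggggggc
The MT2A window holds 7 cores, that of MT1H 8, that of MT1X 4 and that of SLC30A1 1, while the window of MTF1 holds none. Of 35116 promoter windows of the same length, 24.8% hold at least 1 core, 6.48% at least 2, 0.370% at least 4 and 0.0313% at least 7. Of the family genes outside the 10, MT1B and MT4 had windows, with 3 cores each, a number that 1.58% of all windows reach. In MT1H, MT1X and MT1B a core begins 53 bases before the start, and in MT2A 54 bases before it. The core of the antioxidant response element, TGACNNNGC on either strand, occurs once in the windows of MT2A, MT1X and SLC30A1 and not in those of MT1H and MTF1, against 10.9% of all windows with at least 1. The core of the xenobiotic response element, GCGTG on either strand, occurs 3 times before SLC30A1, 2 times before MTF1 and once before MT2A, and 32.2% of all windows have at least 1. The 3 motifs were searched separately and their matches may overlap. A match in letters is a description and not a bound site.

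**Figure D1:**
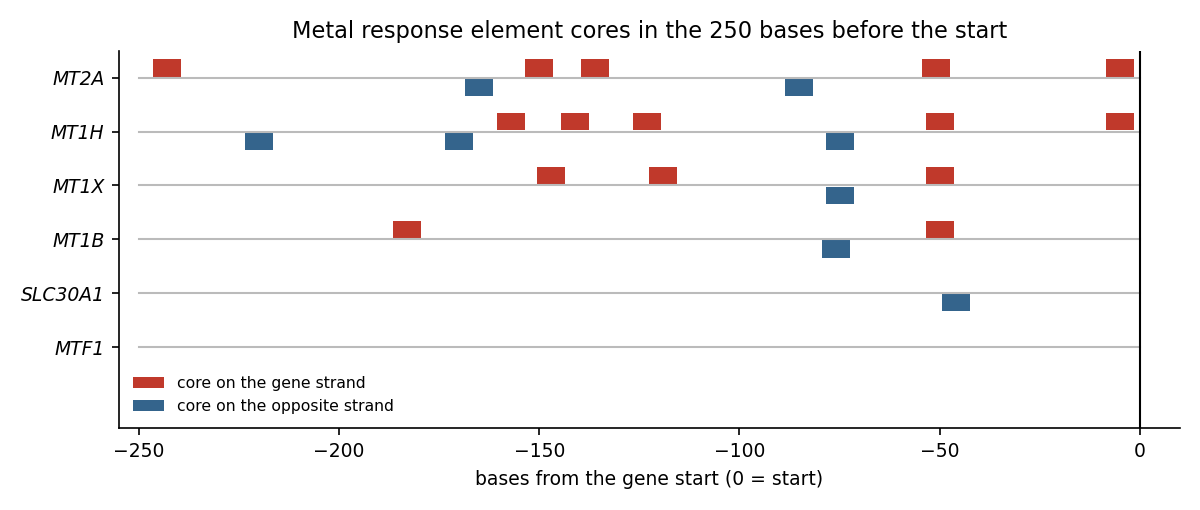
Metal response element cores (TGCACNC or TGCGCNC) in the 250 bases before the start of 6 genes, by distance from the start in bases; red boxes are cores on the gene's strand and blue boxes cores on the opposite strand. MT2A has 7 cores and MT1H 8, against 1 before SLC30A1 and none before MTF1.

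With tamarixetin, metallothionein transcripts became several times more abundant and MT2A made up more of the pool. Summed over the 8 genes, they reached 5445, 5611 and 5601 CPM in the tamarixetin libraries, against 982, 1056 and 1051 CPM in the control libraries, a 5.39-fold difference in means (5553 ± 93.5 CPM with tamarixetin and 1029 ± 41.4 CPM in control, SD, n = 3 each). As a share of all counts this is 0.561% ± 0.0104 with tamarixetin and 0.102% ± 0.00429 in control. The sum was taken over genes chosen with results known, so no test is given for it. RNA came from whole cultures, so more expressing cells and more RNA per cell cannot be told apart.

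MT2A, the main metallothionein gene of many human cell types, had 4818, 4947 and 4950.1 CPM in the tamarixetin libraries, against 731, 780.0 and 780.3 CPM in the control libraries. Every treated library stood far above every control. The log2 fold change was 2.68 (SE 0.030, adjusted p = 3.35e-89 by edgeR, quasi-likelihood F test with Benjamini-Hochberg adjustment over 13198 genes), which is 6.42-fold. By level, MT2A was the 14th gene of those tested with tamarixetin and the 150th in control. In 3′ counting each transcript yields about 1 fragment, long or short, so transcript length enters these ranks little. Reads lost or split between similar genes can still shift them. The difference in MT2A made up 91.6% of the difference in the summed level. By size of fold change it ranked 44th from the top of the 13198 genes.

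MT1E came next in level. It had 509.6, 544 and 533 CPM with tamarixetin, against 174, 194 and 193 CPM in control, with no overlap (log2 fold change 1.5, SE 0.039, adjusted p = 1.08e-56, edgeR). MT1E made up 7.57% of the summed difference. MT1A stood at 40.0, 41.5 and 39.5 CPM with tamarixetin, against 10.2, 9.17 and 8.02 CPM in control, a change of 2.14 (SE 0.104, adjusted p = 6.50e-35, edgeR). MT1A was the third metallothionein gene by level in treated cells, after MT2A and MT1E, and in control cells the lowest of the 6 above 1 CPM.

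MT1X, which is expressed in many human tissues, had 26.7, 24.6 and 25.8 CPM with tamarixetin, against 15.7, 15.8 and 15.7 CPM in control. The 2 groups were apart by several times their spread, and MT1X rose by 0.71 on the log2 scale (SE 0.103, adjusted p = 4.71e-09, edgeR). This is smaller than the change of MT1A, although both genes are of similar level. MT1M was near the detection limit, with 48 counts over the tamarixetin libraries and 7 over the controls. Its libraries read 0.962, 1.59 and 0.907 CPM with tamarixetin and 0.276, 0.167 and 0.0627 CPM in control. The ratio of summed counts, scaled for depth, was 7.0, with an exact 95% interval of 3.15 to 18.3 that covers counting error only. Its fitted change was 2.74 (SE 0.639, adjusted p = 0.000200, edgeR). It passed the filter on low counts through the group in which it is high, so its call is no independent support.

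MT1F and MT1G did not follow. MT1F had 21.7, 23.4 and 22.9 CPM with tamarixetin, against 26.0, 30.1 and 29.3 CPM in control. All treated libraries were below all controls, and the gene fell by 0.33 on the log2 scale (SE 0.093, adjusted p = 0.00239, edgeR). MT1G had 28.1, 28.6 and 28.8 CPM with tamarixetin, against 25.4, 26.8 and 24.6 CPM in control. Its groups did not overlap either, but the log2 difference of 0.16 (SE 0.090) did not pass the test (adjusted p = 0.158, edgeR). Both had been more abundant than MT1A and MT1X in control cells.

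MT1H had 0 counts in all 6 libraries, where 3 counts, the limit that a count of 0 allows, would be 0.192 to 0.247 CPM in tamarixetin and 0.188 to 0.250 CPM in control libraries. Of 14 other family symbols looked up, 8 were matched in the tables, and 4 of these (MT1JP, MT1IP, MT3 and MT4) had no count. MT1L, a pseudogene, was the only other family symbol with at least 10 counts, 13 over the tamarixetin libraries and 6 over the controls, a depth-scaled ratio of 2.21 with an exact interval of 0.785 to 7.10 for counting error only. MT1B had 2 counts with tamarixetin and 3 in control, MT1DP 4 with tamarixetin and 0 in control, and MT1HL1 0 with tamarixetin and 1 in control.

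**Figure D2:**
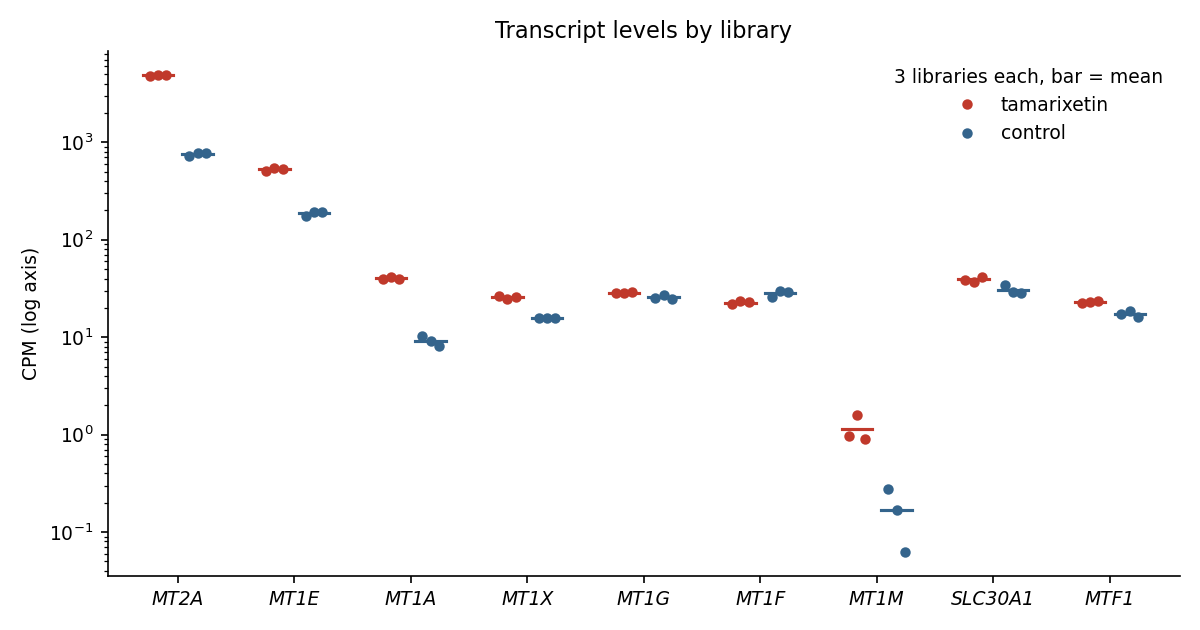
Level of each gene by library, in CPM on a log axis, with tamarixetin (red) left of control (blue), points for the 3 libraries of a group and a bar for their mean. MT2A and MT1E separate widely, MT1F is lower with tamarixetin, and MT1H, with 0 counts in every library, is not drawn.

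Of the 10 genes 9 were tested; 7 rose, MT1F fell and MT1G did not pass. Of all 13198 genes tested 43.7% changed, 22.4% upward and 21.3% downward. This balance moved with scaling: 51.2% of the changed genes were higher with TMM scaling, 57.8% with library size alone and 44.8% with upper quartile factors. The groups did not overlap in 9 of the 9 genes, against 50.5% of all genes tested. The genes were chosen with these results known, so the counts describe them and are no independent evidence.

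The regulator and the exporter moved much less than MT2A. MTF1 had 22.2, 22.9 and 23.3 CPM with tamarixetin, against 17.1, 18.4 and 16.2 CPM in control. All treated libraries were higher, and MTF1 rose by 0.41 on the log2 scale (SE 0.104, adjusted p = 0.000711, edgeR). SLC30A1 had 39.0, 37.1 and 41.5 CPM with tamarixetin, against 34.0, 29.1 and 28.5 CPM in control. These groups did not overlap but came close, and the change was 0.36 (SE 0.083, adjusted p = 0.000165, edgeR), or 1.28-fold. Neither gene passed when a minimum fold of 1.2 was built into the test (adjusted p = 0.114 for MTF1 and 0.165 for SLC30A1, edgeR's glmTreat), nor did MT1F (0.309).

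The makeup of the metallothionein pool shifted. MT2A took 88.5%, 88.2% and 88.4% of the summed metallothionein counts in the tamarixetin libraries, against 74.4%, 73.9% and 74.3% in the control libraries. Exact binomial 95% intervals ran from 87.9% to 88.7% over the tamarixetin libraries and from 73.1% to 75.1% over the controls, and cover counting error only. The means differed by 14.2 percentage points (88.3% ± 0.163 with tamarixetin and 74.2% ± 0.291 in control, SD, n = 3 each; exact permutation test, two-sided p = 0.1, the smallest that 3 against 3 allows). MT1E held 9.53% ± 0.172 with tamarixetin and 18.1% ± 0.384 in control, although its level rose. MT1F held 0.408% ± 0.00988 with tamarixetin and 2.76% ± 0.104 in control. MT1G held 0.513% ± 0.00334 with tamarixetin and 2.49% ± 0.127 in control, and MT1X 0.463% ± 0.0259 with tamarixetin and 1.53% ± 0.0613 in control. These 3 genes thus lost share, whether their level was higher, lower or not called. The share of MT1A was 0.726% ± 0.0182 with tamarixetin and 0.891% ± 0.140 in control, close together although its level rose 4.42-fold. All treated libraries (0.705% to 0.739%) were below all controls (0.764% to 1.04%). The difference of -0.17 percentage points was -0.090 without control replicate 1, and the exact interval of tamarixetin replicate 1 (0.678% to 0.794%) overlapped that of control replicate 3 (0.638% to 0.908%). Library scaling does not enter these shares.

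Leaving MT2A out turned the direction for MT1E and MT1A. Among the 7 MT1 genes alone, MT1E held 81.7% ± 0.381 of counts with tamarixetin and 70.2% ± 1.05 in control, and MT1A 6.23% ± 0.155 with tamarixetin and 3.45% ± 0.563 in control. The MT1F share was 3.50% ± 0.0394 with tamarixetin and 10.7% ± 0.308 in control. MT1G stood at 4.4% ± 0.0896 with tamarixetin and 9.64% ± 0.494 in control, and MT1X at 3.97% ± 0.276 with tamarixetin and 5.92% ± 0.288 in control. MT1E and MT1A thus gained share within the MT1 genes, and MT1F, MT1G and MT1X lost it. MT1 transcripts together had a level of 647 ± 18.9 CPM with tamarixetin and 266 ± 13 CPM in control, a 2.44-fold difference. Without MT1E as well, the difference was 1.5-fold (118 ± 1.21 CPM with tamarixetin and 79.1 ± 2.53 CPM in control).

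**Figure D3:**
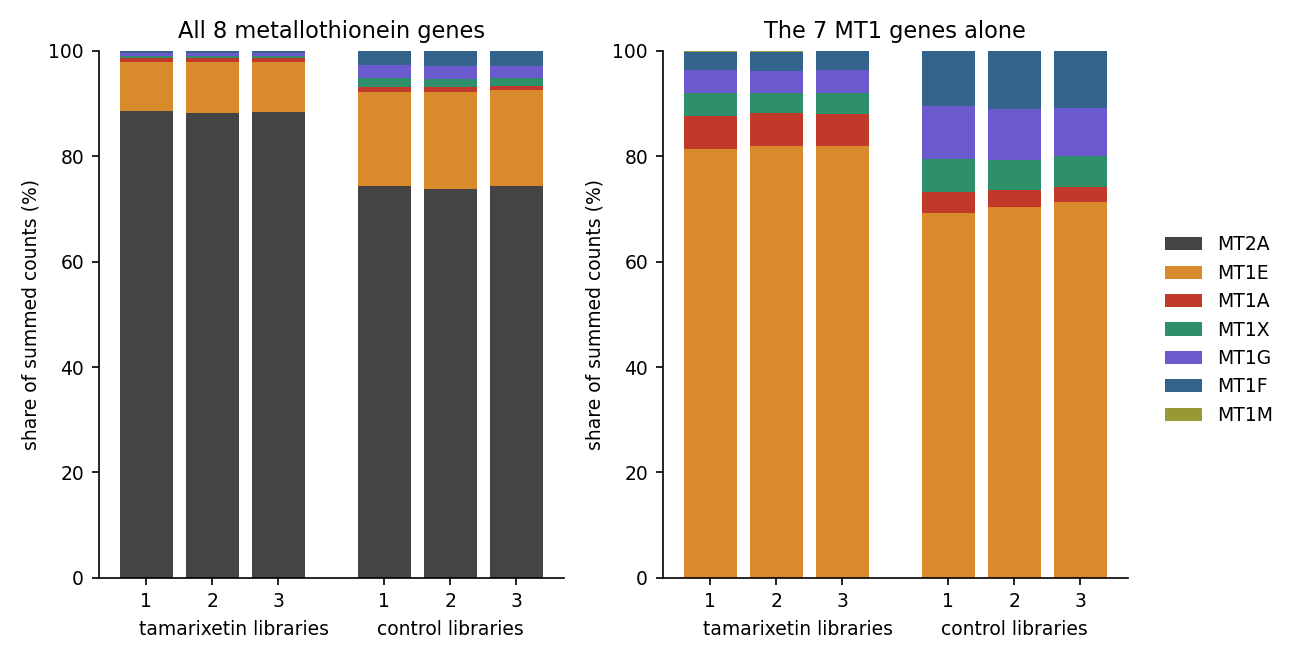
Share of each gene in the summed counts, in percent, for each library, tamarixetin libraries left and control libraries right in both panels, over all 8 metallothionein genes (left panel) and the 7 MT1 genes (right panel). MT2A takes 88.3% on average with tamarixetin and 74.2% in control; among MT1 genes the MT1E share is higher with tamarixetin and those of MT1F and MT1G are lower.

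Ratios between genes of the same library need no scaling. The log2 ratio of MT2A to MT1X was 7.5, 7.65 and 7.58 in the tamarixetin libraries, against 5.54, 5.63 and 5.64 in the control libraries. The means, 7.58 ± 0.078 with tamarixetin and 5.6 ± 0.054 in control (SD), differed by 1.97 (exact permutation test, two-sided p = 0.1, n = 3 each, the smallest p possible). In linear terms, treated cells had 191 MT2A counts for each MT1X count and control cells 48.6. For MT2A to MT1F the ratio was 216 with tamarixetin and 26.9 in control. For MT2A to MT1A it was 122 with tamarixetin and 83.9 in control, the smallest shift among the 5 ratios with MT2A. The log2 ratio of MT1X to MT1F was 0.18 ± 0.115 with tamarixetin and -0.86 ± 0.111 in control, so the order of these 2 genes turned. All 15 ratios among the 6 genes above 1 CPM had groups that did not overlap; these ratios share genes and are not independent.

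Along the chromosome, MT2A, MT1E and MT1A, toward the MT2A end of the cluster, had log2 fold changes of 2.68, 1.5 and 2.14. They lie within 30.1 kb, measured between low-coordinate ends. MT1M, between MT1E and MT1A, had 2.74, but from few counts and after passing the filter through its high group. The pseudogenes MT1L (13 counts with tamarixetin, 6 in control) and MT1JP (0 in both) lie in the same stretch and were not tested. MT1F and MT1G, at 49.4 and 58.1 kb, had -0.33 and 0.16, and MT1X at 73.9 kb had 0.71. This order was seen in these values and was not tested. Of 25 neighbours of the tables that RefSeq places within 500000 bases of the cluster's ends, 10 were tested. Of these, 2 rose and 3 fell, against 22.4% and 21.3% of all genes tested, and the median was 0.049. Scaled by library size alone, 3 rose and 2 fell, and without a filter on low counts or in DESeq2 2 rose and 2 fell. On the MT2A side OGFOD1, a prolyl hydroxylase gene, rose by 0.20 (SE 0.047) and NUDT21, a subunit of the mRNA cleavage factor, fell by 0.22 (SE 0.048). BBS2, of the cilium, is the nearest tested gene on the MT2A side and was 0.25 lower (SE 0.106), close to the threshold (adjusted p = 0.0480, edgeR). Nearer still is LOC124903695, at -1.675 kb from MT2A between low-coordinate ends. It had 14 counts over the tamarixetin libraries and 2 over the controls, too few to be tested. On the MT1X side NLRC5, an activator of MHC class I genes, rose by 0.86 (SE 0.226) with 5.47 ± 0.570 CPM in tamarixetin and 2.99 ± 0.549 CPM in control libraries, and HERPUD1, of endoplasmic reticulum degradation, fell by 0.31 (SE 0.058). The nearest tested gene on the MT1X side, NUP93 of the nuclear pore, had 0.096 (SE 0.043) and did not pass (adjusted p = 0.0642, edgeR).

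**Figure D4:**
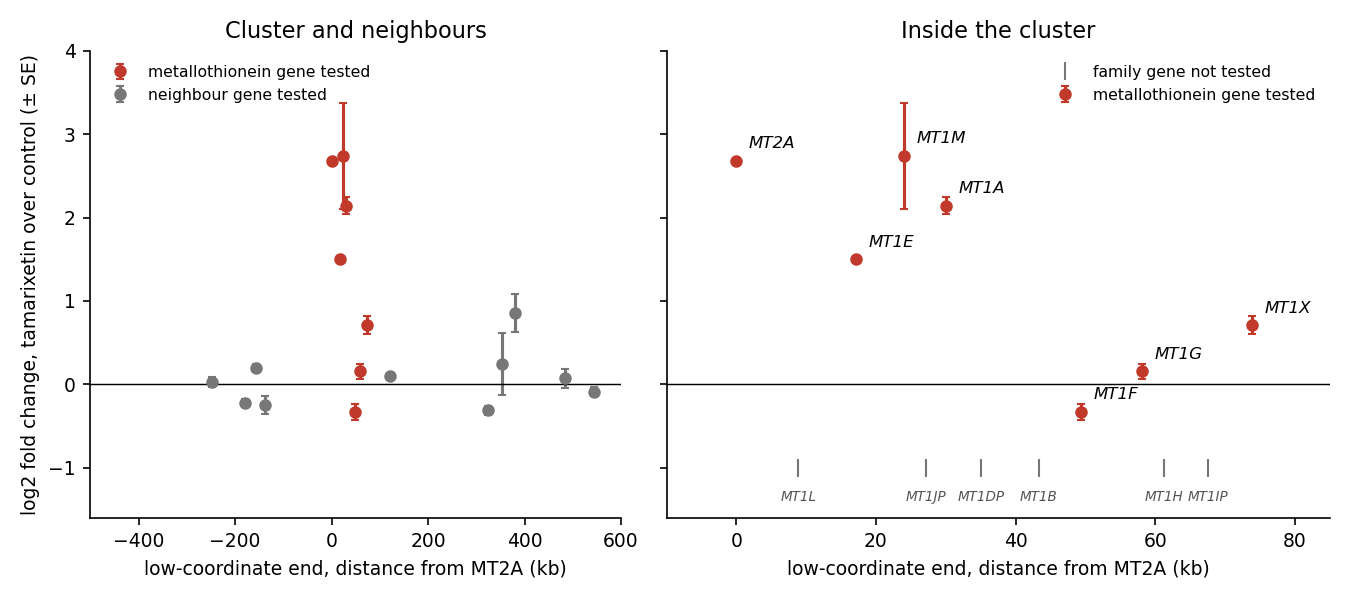
Log2 fold change of tamarixetin over control, with SE, by distance of the gene's low-coordinate end from that of MT2A in kb, for the cluster with its neighbours (left) and the cluster alone (right). MT2A, MT1E, MT1M (of few counts) and MT1A lie between 1.5 and 2.74. MT1F is below 0, and the tested neighbours lie between -0.31 and 0.86.

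The near-identity of the genes limits the values of single metallothioneins, since reads that match several genes can be split or lost. In the last 300 bases of GENCODE 29 protein-coding transcripts, which this kind of library reads, 92.8% of stretches of 50 bases in MT1F occur in no other gene. The share was 92.2% in MT1E, 92.0% in MT1A, 86.8% in MT2A, 82.8% in MT1G, 80.6% in MT1M and 77.7% in both MT1X and MT1H. At 100 bases it was 100% in 7 of the 8 genes and 96.3% in MT1H, and it was 100% in MTF1 and SLC30A1 at either length. The sources used here give neither the read length nor the annotation used for counting. MT1X also overlaps a transcript that GENCODE calls AC026461.1, on the same strand.

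Stress genes that metal ions such as cadmium also induce rose in 14 of 14, with a median log2 fold change of 1.60. Over all genes tested 22.4% rose, and the median was 0.00038. The list was written with earlier results known, and many of its members are NRF2 targets, so it is no independent evidence. SRXN1 (sulfiredoxin) rose by 1.94, GCLM (glutathione synthesis) by 1.97, TXNRD1 (thioredoxin reductase) by 1.89 and SQSTM1 (autophagy receptor) by 1.64. HMOX1, the heme oxygenase gene and a strong cadmium responder in many cells, rose by 0.34 (SE 0.090), with 31.7 ± 3.53 CPM in tamarixetin and 24.9 ± 0.878 CPM in control libraries. HSPA6, a heat shock gene that is silent in many unstressed cells, had 89 counts over the tamarixetin libraries and 0 over the controls; with the controls set to 3 counts in all, the difference is at least 29.9-fold. The median of the list does not change at that bound. HSPA6 passed the filter on low counts only through the tamarixetin group, so its call among the 14 is no independent support.

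Zinc transporters outside the 10 genes moved in both directions, where 22.4% of all genes tested rose and 21.3% fell. Of 9 other exporters of the ZnT family 6 were tested, 2 rose (SLC30A6 by 0.31 and SLC30A7 by 0.29, which load the Golgi and secretory pathway) and 2 fell (SLC30A10, known for manganese export, by 0.67 and SLC30A9 by 0.17), with a median of -0.030 that was 0.0051 with scaling by library size alone. With that scaling 1 exporter fell instead of 2, and DESeq2 called 1 higher and 1 lower. Of 14 importers of the ZIP family 11 were tested, 3 rose and 5 fell, with a median of -0.15. SLC39A5 fell by 1.09 (SE 0.081), SLC39A14, a zinc and iron importer of hepatocytes, by 0.47 (SE 0.044) and SLC39A4, the importer mutated in acrodermatitis enteropathica, by 0.36 (SE 0.046). SLC39A6 rose by 0.47 (SE 0.056), and so did SLC39A10, which MTF1 represses in mouse cells, by 0.36 (SE 0.079). The other calls were SLC39A13, higher by 0.28, and SLC39A11 and SLC39A7, which fell by 0.45 and 0.33.

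Copper handling genes were likewise mixed, with 3 of 13 tested higher, 5 lower and a median of -0.062. Shares over all genes tested were 22.4% higher and 21.3% lower. Scaled by library size alone, 3 copper genes were higher and 4 lower, and DESeq2 called 2 higher and 5 lower. The copper chaperones ATOX1 and CCS fell by 0.64 (SE 0.059) and 0.53 (SE 0.087), while the importer SLC31A1 rose by 0.33 (SE 0.049) and COX17, a chaperone for cytochrome oxidase, by 0.32 (SE 0.046). SCO2 also rose, by 0.24, and ATP7B, COMMD1 and SOD1 fell by 0.48, 0.28 and 0.11. Among factors that work with MTF1 or bind metallothionein promoters, and their relatives, 4 of 8 rose and 2 fell. HSF1 rose by 0.32, NFE2L2 (which encodes NRF2) by 0.25 and USF2 and EP300 by 0.17 each, and SP1 and MTF2 fell by 0.42 and 0.18. With scaling by library size alone or in DESeq2, 1 of the 8 fell in place of 2.

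**Figure D5:**
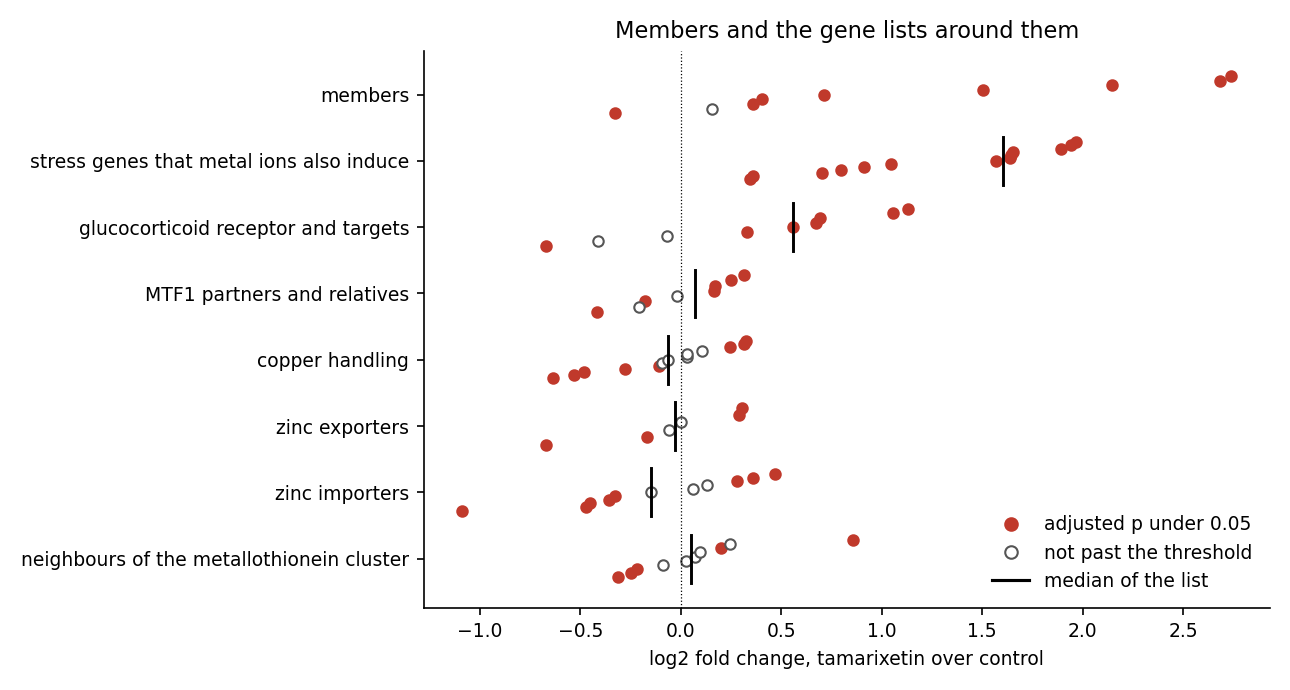
Log2 fold change of tamarixetin over control for each tested gene of the 10 and of 7 lists, filled where the adjusted p is under 0.05 and open where it is not, with a line at each list's median (none for the 10). HSPA6, with 0 control counts, is not drawn but counts toward the median of its list. The metallothionein genes spread from -0.33 to 2.74 (MT1M, of few counts), while zinc and copper genes lie on both sides of 0.

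The genes most like MT2A across the 6 libraries, by Pearson correlation of log2 CPM among the 8645 genes averaging 10 CPM or more, were PLIN2 (lipid droplet coat), CAVIN2 (caveolae), AQP3 (water and glycerol channel), SRXN1 and SQSTM1. Their r was over 0.999 in each case, from 0.9995 for SQSTM1 to 0.9998 for PLIN2. The 6 points are 2 groups of 3, so r mostly restates a group difference with little spread, and 294 genes had an r above 0.99. PLIN2 had 580 ± 4.14 CPM with tamarixetin and 234 ± 4.14 CPM in control. Of the metallothionein genes MT1E had the highest r with MT2A (0.999, rank 27), followed by MT1X (0.994) and MT1A (0.993), and MT1F had -0.90.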

How the data were processed

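Libraries came from the QuantSeq 3′ V2 forward kit (Lexogen), per the labels' protocols. Per the submitters' processing notes, the tools were featureCounts 2.0.6, STAR 2.7.10b and fastp 0.23.1, with GRCh38. Strand setting, annotation release and any molecular identifiers were not given in the sources used here. Per library, the authors deposited 1 table of unnormalised read counts by gene symbol.

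Counts of 3 tamarixetin and 3 control libraries entered a fit in edgeR 4.0.16 under R 4.3.3 (filterByExpr, TMM scaling, quasi-likelihood F test, group as the only term), with Benjamini-Hochberg adjustment over 13198 genes and a threshold of 0.05. SE was taken as the log2 fold change over the root of F. CPM uses TMM-adjusted library sizes. Within groups, library pairs had 2.35 to 3.52 units of chi-square per gene, so none was counted as a copy; where replicates are not separate cultures, p-values measure only the spread between these samples. Counts were also simulated for this comparison (13065 genes), with 200 genes changed and the same dispersion for every gene. Of 50 genes changed 1.25-fold, near the size of MT1F, MTF1 and SLC30A1, 52% were recovered. So were 78% of 50 changed 1.5-fold and 94% of 50 changed 2-fold, with 6 false calls. Far more genes changed in the data (43.7%), which moves the cutoff of the adjusted p. These recovered shares therefore do not carry over to the data.

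The members and gene lists were chosen with earlier results of these data known. Named were all 10 members, other family symbols with at least 10 counts, up to 4 genes per list with the smallest p, and the 5 genes most like MT2A; other list genes given with values (among them HMOX1, HSPA6, SLC39A10 and NUP93) were chosen after their values were seen. Promoters and gene positions come from RefSeq (GRCh38.p14), transcripts from GENCODE 29. Coding sequences were aligned with Biopython 1.88 and permutation tests run with scipy 1.17.1. Alternatives covered scaling, low-count filters, a block for replicate number, each library left out in turn, DESeq2 1.42.0, limma-voom (limma 3.58.1), stricter thresholds, the genes summed and pseudocounts.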

Additional observations from a re-analysis of the deposited data

How the results depend on the processing

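All member directions held under every alternative in which the gene was tested, and calls were lost only with a minimum fold of 1.2, where 5 of the members changed, 0 of them lower, and 2560 of all genes changed, 1319 higher and 1241 lower. The log2 fold change ranged from 2.65 to 2.72 for MT2A, from -0.39 to -0.29 for MT1F and from 0.30 to 0.44 for SLC30A1. MT1M was not tested with at least 5 CPM in 3 libraries. Leaving out each library in turn, 5155 to 5367 genes changed (2643 to 2733 higher, 2512 to 2645 lower), 8 members changed (7 higher, 1 lower), the log2 fold of the summed level ran from 2.40 to 2.45, the MT2A share rose by 14.0 to 14.3 percentage points and the MT2A to MT1X ratio by 1.94 to 2.01. Among MT1 genes alone the shares of MT1E and MT1A differed by 11.5 and 2.77 percentage points, against -8.60 and -0.17 among all 8 genes, since the denominator then lacks MT2A. The share of MT1M, a few counts, turned to -0.0012 points without control replicate 3. With the replicate number as a block, 5735 genes, 8 members and 4 in place of 5 cluster neighbours changed. Deviations of same-numbered libraries correlated at -0.017 to 0.010, and those of differently numbered libraries at -0.019 to 0.027. No shared effect of the number was seen, which does not exclude that same-numbered samples were handled together. Depth limits MT1M, MT1L and MT1H.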

Other observations

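Genes of the glucocorticoid receptor and its targets, a second known input to metallothionein genes, were looked up in the same fit. Of 9 tested, 6 rose and SGK1, a kinase gene, fell by 0.67 (SE 0.115), with a median log2 fold change of 0.56. Among all genes tested, 22.4% rose and 21.3% fell. DESeq2 called 5 genes of the list higher in place of 6, and 1 lower. NR3C1, which encodes the receptor, rose by 0.69 (92.9 ± 3.61 CPM with tamarixetin, 57.4 ± 3.06 CPM in control, SD, n = 3 each), the Krüppel-like factor gene KLF9 by 1.05 (SE 0.151) and FKBP5, a co-chaperone of the receptor, by 0.33 (SE 0.073). TSC22D3, TAT and DUSP1 rose by 1.13, 0.67 and 0.56. PER1, a clock gene, and ANGPTL4 did not pass (-0.07 and -0.41). The list was written with earlier results known and its part in the metallothionein values was not tested.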
